A study of Macaca mulatta with 28 samples.

Results

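The synaptic vesicle release machinery, 43 genes whose proteins dock, prime, fuse and recover the vesicles of nerve terminals, was examined in RNA of rhesus macaques, taken from a midbrain region called the ventral tegmental area (VTA). The genes were chosen by symbol, and 40 of the 43 had a row in a count table of 16885 transcripts that carry a gene symbol. VAMP2, CPLX2 and CADPS had no row in that table, and their transcripts were not analysed here. The table lists 1 Ensembl transcript per symbol, so that a value below is the estimated count of that transcript and not of every transcript of the gene.

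In a resting terminal, scaffold proteins of the active zone and the small GTPase RAB3 hold vesicles near the plasma membrane, and UNC13 and RIM proteins make them ready for fusion. Calcium entry then acts through synaptotagmins on the SNARE proteins of both membranes, whose assembly drives fusion, while complexins hold and support that step. NSF and its adaptors take the spent SNARE complexes apart, and dynamin, amphiphysin and synaptojanin retrieve the membrane. The VTA holds dopamine neurons, which release transmitter from axons and from dendrites, beside GABA and glutamate neurons. RNA of a tissue punch comes mainly from cell bodies and reports little of the terminals that reach the region from elsewhere.

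The tissue was a frozen VTA punch of 28 male, wild-type animals, with 1 library each: 17 had drunk ethanol voluntarily over repeated periods of open access, and 11 were controls that were either yoked for calories or kept as housing controls, which the labels do not tell apart. All drinkers were killed after a last month of forced abstinence, and their labels sort them into 9 very heavy, 5 heavy, 2 binge drinkers and 1 low drinker. The study ran in 2 cohorts, the first with 8 animals in each arm and the second with 3 controls beside 9 drinkers, an assignment that comes from the study's source data by animal number and not from the labels. Counts summed to between 12303914 and 27338669 per animal, of which mitochondrial transcripts took 36.4 to 60.6%. TH, the rate-limiting enzyme of dopamine synthesis, was counted in every punch but ranged from 5.58 to 826 CPM. CPM here are counts per 1e6 of a library total adjusted by TMM, a scaling between libraries. With this range of TH the punches differed widely in their dopamine neuron RNA. In such bulk samples fewer cells of a type and less RNA per cell cannot be told apart.

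Of the 40 members with a row, 36 had at least 5 counts in at least 3 animals and were tested, and 20 had at least 10 counts in every animal. The other 20 were listed at 0 in at least 1 animal, which is 50% of the rows, and the share over all symbols in the table was 50.7%. Together the members took 0.208% of the counts in the lowest animal, 0.362% in the median animal and 0.714% in the highest. SNAP25, RAB3A, SYP, CPLX1 and VAMP1 held 76.7% of those counts. Because the lengths of the listed transcripts were not available here, levels are compared between animals and not between genes. The map of counts by animal shows which members were present throughout and which came and went.

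**Figure D1:**
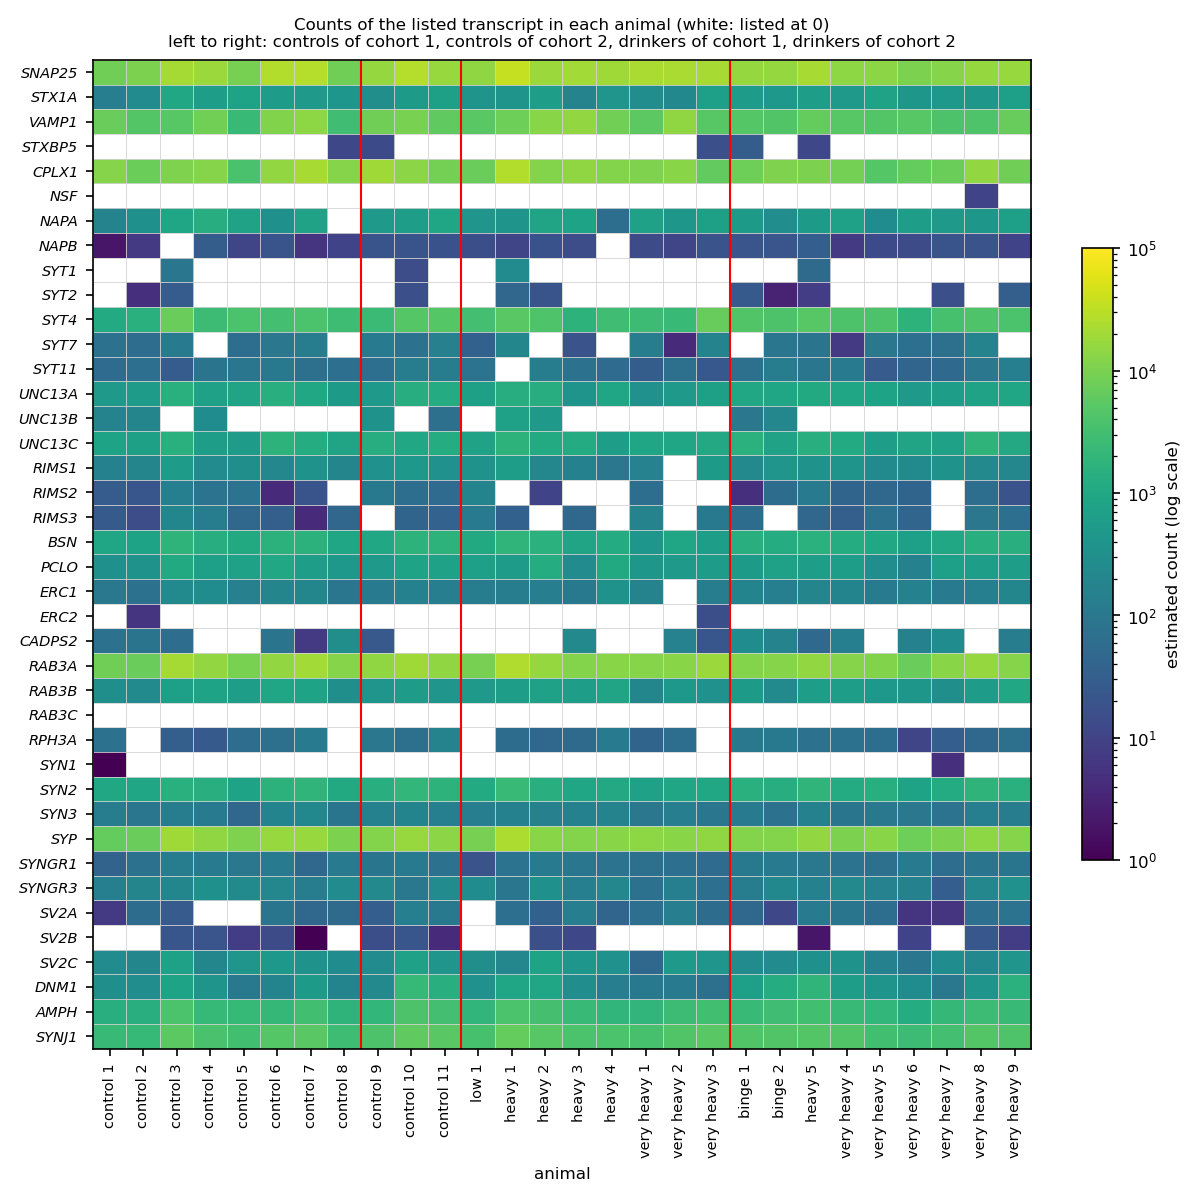
Estimated count of the listed transcript of each of the 40 members with a row (vertical axis, in order of role) in each of the 28 animals (horizontal axis), on a log colour scale, with white for transcripts listed at 0. SNAP25, CPLX1, RAB3A and SYP are filled in every animal, while RAB3C is white throughout and NSF, SYN1 and ERC2 are white in 26 or more animals.

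Among the SNARE proteins, which form the fusion complex itself, SNAP25, STX1A and VAMP1 were counted in every animal. SNAP25, the plasma membrane SNARE with 2 of the helices of the complex, lay at 397 CPM in the lowest control, 742 in the median and 1186 in the highest, and at 504, 742 and 1474 CPM in the drinkers. STX1A, the syntaxin that anchors the complex in the plasma membrane, ran from 10.9 through a median of 21.8 to 39.5 CPM in controls and from 7.98 through 21.4 to 42.9 CPM in drinkers. VAMP1, a SNARE of the vesicle membrane, ran from 107 through 376 to 591 CPM in controls and from 186 through 275 to 774 CPM in drinkers. For each of the 3 SNARE proteins the ranges of drinkers and controls overlapped over most of their width.

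Of the SNARE regulators, CPLX1, a complexin that binds the assembled complex, was the one counted in every animal. Its level was 159 CPM in the lowest control, 569 in the median and 981 in the highest, against 269, 465 and 1080 CPM in drinkers. NAPA, an adaptor that recruits NSF, was at 0 in control 8 and reached a median of 25.4 CPM over all animals, and its paralog NAPB was at 0 in control 3 and heavy drinker 4 with at most 31 counts elsewhere. NSF, the ATPase that separates SNARE proteins after fusion, was listed at 0 in 27 animals and had 10 counts in very heavy drinker 8. STXBP5, a tomosyn that binds syntaxin, had between 12 and 30 counts in 5 animals and 0 in the other 23. NSF is an enzyme that all cells use, so its row cannot be read as the level of the gene.

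Of the 5 synaptotagmins, the calcium sensors of fusion and their relatives, 4 were listed at 0 in at least 1 animal. SYT1, the fast sensor of forebrain synapses, had 92 counts in control 3, 15 in control 10, 257 in heavy drinker 1 and 53 in heavy drinker 5, and was listed at 0 in the other 24 animals. SYT2, a fast sensor of many hindbrain synapses, had counts in 10 animals, with at most 45 in heavy drinker 1. The 4 animals with SYT1 were all among the 10 with SYT2. SYT4, a synaptotagmin of vesicles and dense-core granules, was present throughout and ran from 92.5 through 134 to 280 CPM in controls and from 76.1 through 173 to 329 CPM in drinkers. SYT7, linked to slower release, was at 0 in 6 animals, and SYT11, which does not bind calcium, was at 0 in heavy drinker 1 alone.

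Of the 11 active zone and priming members with a row, UNC13A, UNC13C, BSN and PCLO had at least 10 counts in every animal. UNC13A, the main priming factor of excitatory terminals, ran from 22.6 through 40.1 to 57.7 CPM in controls and from 17.9 through 36.8 to 52.3 CPM in drinkers. BSN (bassoon) and PCLO (piccolo) are giant scaffolds of the active zone. BSN had a lowest, median and highest level of 42.6, 61.9 and 74.3 CPM in controls and of 26.5, 53.5 and 74.3 CPM in drinkers. PCLO had 21.5, 29.2 and 42.1 CPM in controls and 7.79, 26.9 and 50.6 CPM in drinkers. Its range was wider among drinkers on both sides, but over 17 drinkers against 11 controls, and a difference in spread was not tested. RIMS1, a RIM scaffold that joins RAB3 to UNC13, was at 0 in very heavy drinker 2 and had a median of 13.1 CPM over all animals, and ERC1 was at 0 in the same animal. RIMS2 was at 0 in 7 animals, RIMS3 in 6 and CADPS2, a priming factor of dense-core vesicles, in 11. ERC2 had 6 counts in control 2 and 16 in very heavy drinker 3 and was at 0 in the other 26 animals.

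UNC13B, a second priming factor, was either listed at 0 or counted at 70 or more. It had 70 to 371 counts in 5 of the 11 controls, 718 and 505 in heavy drinkers 1 and 2, and 96 and 208 in the 2 binge drinkers. It was listed at 0 in the remaining 6 controls, in heavy drinkers 3, 4 and 5, in the low drinker and in all 9 very heavy drinkers.

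RAB3A, the main RAB3 of brain vesicles, ran from 439 through 646 to 863 CPM in controls and from 357 through 618 to 1043 CPM in drinkers. RAB3B was present in every animal with a median of 25.5 CPM, RAB3C was at 0 in all 28 and the RAB3 effector RPH3A was at 0 in 4. The synapsins tether vesicles to each other and to actin. SYN2 had 34.5, 61.5 and 87.3 CPM in the lowest, median and highest control and 38.4, 58.5 and 98.7 CPM in drinkers. SYN3 had 2.06, 6.37 and 9.93 CPM in controls and 3.46, 6.05 and 7.52 CPM in drinkers. SYN1, a marker of synapses in most of the brain, had 1 count in control 1, 5 in very heavy drinker 7 and 0 in the other 26 animals, and its paralog rows do not stand in for it.

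Among the proteins of the vesicle membrane, SYP (synaptophysin) ran from 475 through 567 to 748 CPM in controls and from 386 through 548 to 995 CPM in drinkers. SYNGR1 and SYNGR3, its synaptogyrin relatives, had medians of 4.11 and 8.99 CPM over all animals. SV2C, the SV2 glycoprotein of basal ganglia neurons, ran from 8.38 through 16.9 to 31.2 CPM in controls and from 2.87 through 14.7 to 32.1 CPM in drinkers, whereas SV2A was at 0 in 3 animals and SV2B in 14. Of the endocytosis members, AMPH (amphiphysin) had medians of 101 CPM in controls and 117 in drinkers, and SYNJ1 (synaptojanin 1) had medians of 184 and 188 CPM. DNM1, the neuronal dynamin that cuts endocytic vesicles free, was by far the most variable: 4.56, 20.2 and 98.0 CPM in controls and 3.41, 18.3 and 84.1 CPM in drinkers.

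The highest DNM1 value was 28.8 times the lowest, and the standard deviation of its log2 CPM was 1.32. SYNJ1 lay at the other end, with a highest value 2.04 times the lowest and a standard deviation of 0.278, and SYP, AMPH and RAB3A followed with standard deviations of 0.314, 0.336 and 0.346. Among the 20 members counted throughout, heavy drinker 1 held the highest level of SNAP25, CPLX1, RAB3A, SYN2, SYP and SYNJ1, and control 5 held the lowest of VAMP1, CPLX1, UNC13C, SYN2, SYN3 and SYNJ1. Very heavy drinker 6 was lowest for SYP, AMPH, RAB3A and PCLO. A few animals therefore set the ends of many members' ranges at once, and some of the fits were repeated without heavy drinker 1 and without control 5.

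**Figure D2:**
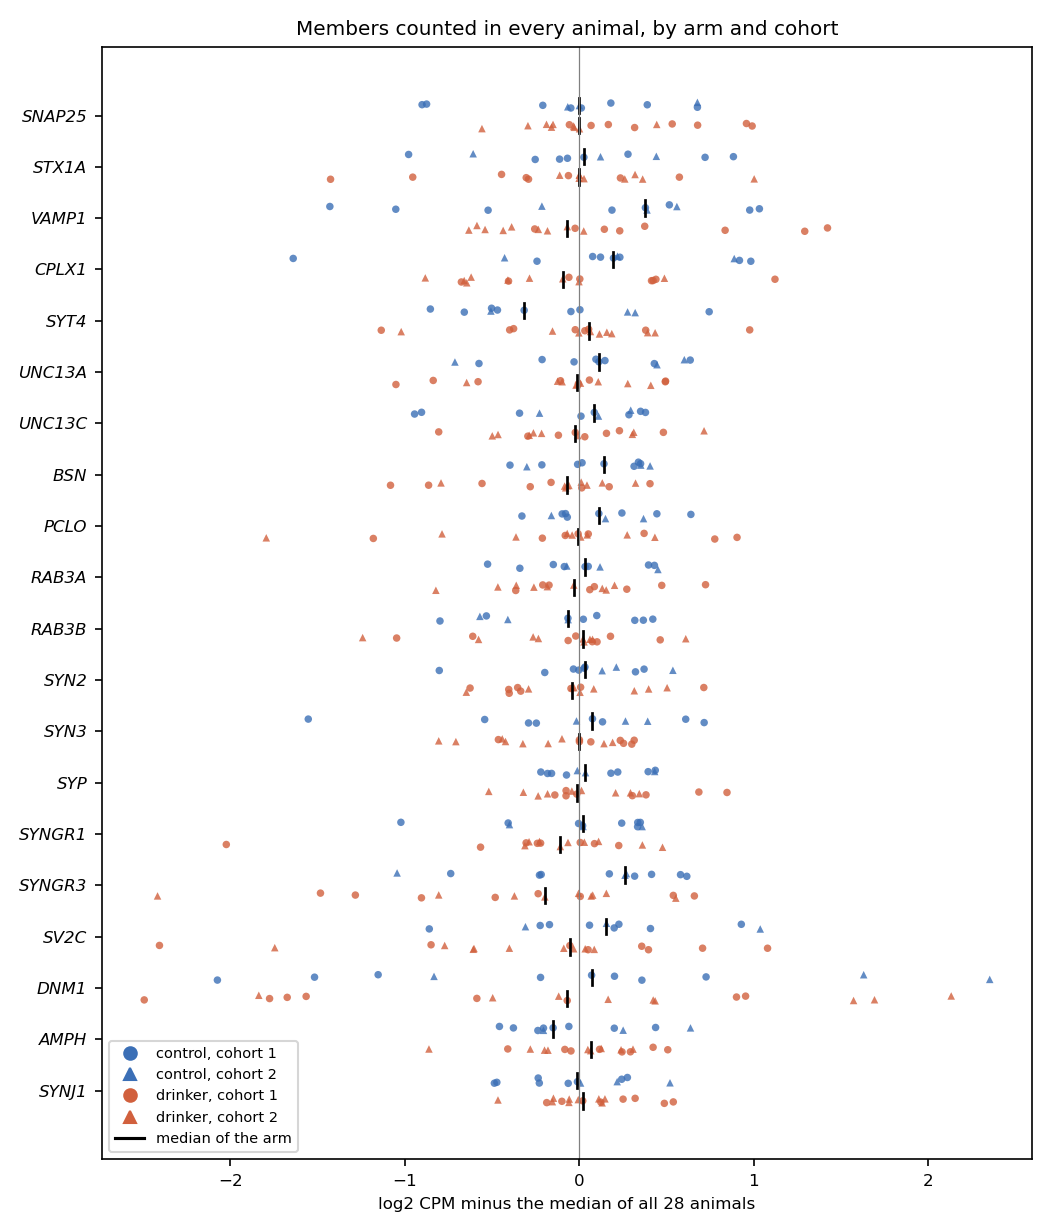
Log2 CPM of the 20 members counted in every animal, each minus its median over the 28 animals (horizontal axis), in controls (blue) and drinkers (orange) of cohort 1 (circles) and cohort 2 (triangles), with a black bar at the median of each arm. The points of both arms overlap for each member, and DNM1 is spread the widest.

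The first comparison asked whether any member differed between drinkers and controls after the abstinence. By edgeR's quasi-likelihood test none of the 36 members tested changed at an adjusted p below 0.05, where 0% of the 13769 transcripts tested were called, and 0 members had an unadjusted p below 0.05, where 4.57% of all transcripts did. DESeq2 called 0 members as well, and 0.0799% of all transcripts. The lowest p among members belonged to BSN, at a log2 difference of -0.24 (drinkers minus controls, SE 0.13, 95% interval -0.51 to 0.04) and an edgeR adjusted p of 1.00. CPLX1 followed at -0.28 (SE 0.22, interval -0.73 to 0.18) and SYNGR3 at -0.30 (SE 0.25, interval -0.80 to 0.21), neither called. For SNAP25 the difference was 0.16 (interval -0.20 to 0.52), for STX1A -0.09 (interval -0.49 to 0.32) and for VAMP1 -0.05 (interval -0.57 to 0.47). SYP, at 0.01 (interval -0.24 to 0.26), and SYNJ1, at 0.07 (interval -0.15 to 0.28), had the narrowest intervals, and that of DNM1 reached from -1.08 to 0.90. With the GC correction BSN was at -0.12, CPLX1 at -0.097 and SYNGR3 at -0.12, and STX1A and VAMP1 turned to 0.038 and 0.036. SNAP25 was at 0.089 without control 5, and SYP turned to -0.016 without control 5 and -0.044 without heavy drinker 1. For 19 of the 20 members counted throughout, the interval lay within 1 log2 unit, a doubling or halving, on either side of 0.

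Of those 20 members, 14 had a log2 difference below 0, against 50.3% of all transcripts counted throughout, with a median of -0.09 against -0.00078. The sign of the members' median depended on the scaling. A correction for transcript GC content moved the median of the 36 members from -0.09 to 0.02 and that of all transcripts from 0.0015 to 0.064. The members' median was the lower one under both scalings. Since the members rose and fell together across animals, as shown further on, such counts of signs are not counts of independent results. In the same comparison 3 of 10 neuron markers were below 0 (median 0.117), 11 of 13 dopamine neuron markers (median -0.26) and 7 of 10 oligodendrocyte markers (median -0.126). The part of these lists in the members' values was not tested.

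Within cohort 1, where 0.959% of all transcripts were called by edgeR, 0 of the 36 members were called, and DESeq2 called 0 members and 3.22% of all transcripts. The 2 members with an unadjusted p below 0.05 were both higher in drinkers, where 6.55% of all transcripts were higher with such a p and 14.7% had one in either direction. Of the 20 members counted throughout, 8 had a log2 difference below 0, against 50.7% of such transcripts. The median over the 36 members, 0.042, had no stable sign. It was -0.0874 without heavy drinker 1, with 21 below 0 and 3 with such a p, and -0.0079 without control 5. With the GC correction it was 0.173, with 10 below 0 and 5 with such a p. That correction also moved the median of all transcripts, from -0.0072 to 0.138. SNAP25 ran from 397 through 733 to 1186 CPM in the 8 controls of cohort 1 and from 713 through 999 to 1474 CPM in the 8 drinkers, a log2 difference of 0.51 (SE 0.20, interval 0.10 to 0.92, edgeR adjusted p = 0.19). SYNJ1 ran from 132 through 167 to 224 CPM in controls and from 163 through 211 to 269 CPM in drinkers, a log2 difference of 0.30 (SE 0.12, interval 0.050 to 0.55, edgeR adjusted p = 0.21). Both ranges overlapped. BSN followed at -0.31 (interval -0.67 to 0.06), which became -0.052 with the GC correction and -0.42 without heavy drinker 1. The summed level of 11 neuron marker transcripts with a row, of 12 listed, had a median of 5674 CPM in these controls and 9100 in these drinkers, and oligodendrocyte markers, 10 of 11 with a row, had a summed median of 19091 CPM in these controls and 17009 in these drinkers, with a log2 difference below 0 for 7 of 10. The part of either list in the SNAP25 and SYNJ1 values was not tested. RBFOX3, ELAVL3, ELAVL4, ENO2 and STMN2 of the neuron list were at 0 in at least 1 animal.

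In cohort 2, with 3 controls, 0 members were called and 0 had an unadjusted p below 0.05 by edgeR, where 0% and 2% of all transcripts were, and DESeq2 called 0 members and 0.392% of all transcripts. SYNJ1 was at 186, 265 and 215 CPM in controls 9, 10 and 11 and at 134 to 205 CPM in the 9 drinkers, with a median of 178. Its log2 difference was -0.31 (SE 0.16, interval -0.63 to 0.02). SV2C was at 12.3, 31.2 and 16.9 CPM in those controls and at 4.54 to 16.1 CPM in the drinkers (log2 difference -0.78, interval -1.64 to 0.09). CPLX1 was at 919, 578 and 369 CPM in controls and at 269 to 696 CPM in drinkers (log2 difference -0.61, interval -1.36 to 0.14). Of the 20 members counted throughout, 18 had a log2 difference below 0, against 49.8% of transcripts counted throughout, with a median of -0.26 against 0.0011.

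The direction stayed without any 1 of the 3 controls, but its size did not. Control 10 had the highest DNM1 and AMPH levels of the 28 animals and a BSN level beside that of heavy drinker 1 at the top. Without it the median log2 difference of the 36 members tested moved from -0.29 to -0.14, with 26 in place of 29 below 0. Without control 9 the median was -0.33, with 27 below 0, and without control 11 it was -0.28, with 28 below 0. The count of members with an unadjusted p below 0.05 was 4 without control 9, 1 without control 11, 0 without control 10 and 3 of 35 when cohort 2 was fitted alone. The named values moved with single controls as well. SYNJ1 ran from -0.421 without control 9 to -0.165 without control 10, SV2C from -1.03 to -0.317 without the same controls, and CPLX1 from -0.875 without control 11 to -0.218 without control 9. Summed neuron markers were at 5178 to 12333 CPM in the 3 controls of cohort 2 and at 4045 to 6487 CPM in its drinkers. Dopamine neuron markers had a median log2 difference of -0.659, with 10 of 13 below 0. Oligodendrocyte markers had one of 0.161, with 2 of 10 below 0. The part of these lists in the members' values was not tested.

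The difference between the cohorts in the effect of drinking was tested as an interaction. Of the 36 members, 0 were called by edgeR, where 0.0145% of all transcripts were, and 0 by DESeq2, where 1.1% were. The 4 members with an unadjusted p below 0.05, all lower, stand against 4.69% of all transcripts that were lower with such a p and 9.62% in either direction. These were SYNJ1 at a log2 difference of differences (cohort 2 minus cohort 1) of -0.61 (SE 0.20, edgeR adjusted p = 0.30), SNAP25 at -0.84 (SE 0.33, edgeR adjusted p = 0.37), AMPH at -0.55 (SE 0.26) and VAMP1 at -0.99 (SE 0.47). Without control 5, 2 members had such a p, and without control 10, 1 did and AMPH was at -0.328. Of the 20 members counted throughout, 14 were below 0, against 48.2% of such transcripts, with a median of -0.353. Neuron markers were lower too, with a median of -0.851 over 10, of which 8 were below 0 and 5 had an unadjusted p below 0.05, and their part in the members' values was not tested.

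**Figure D3:**
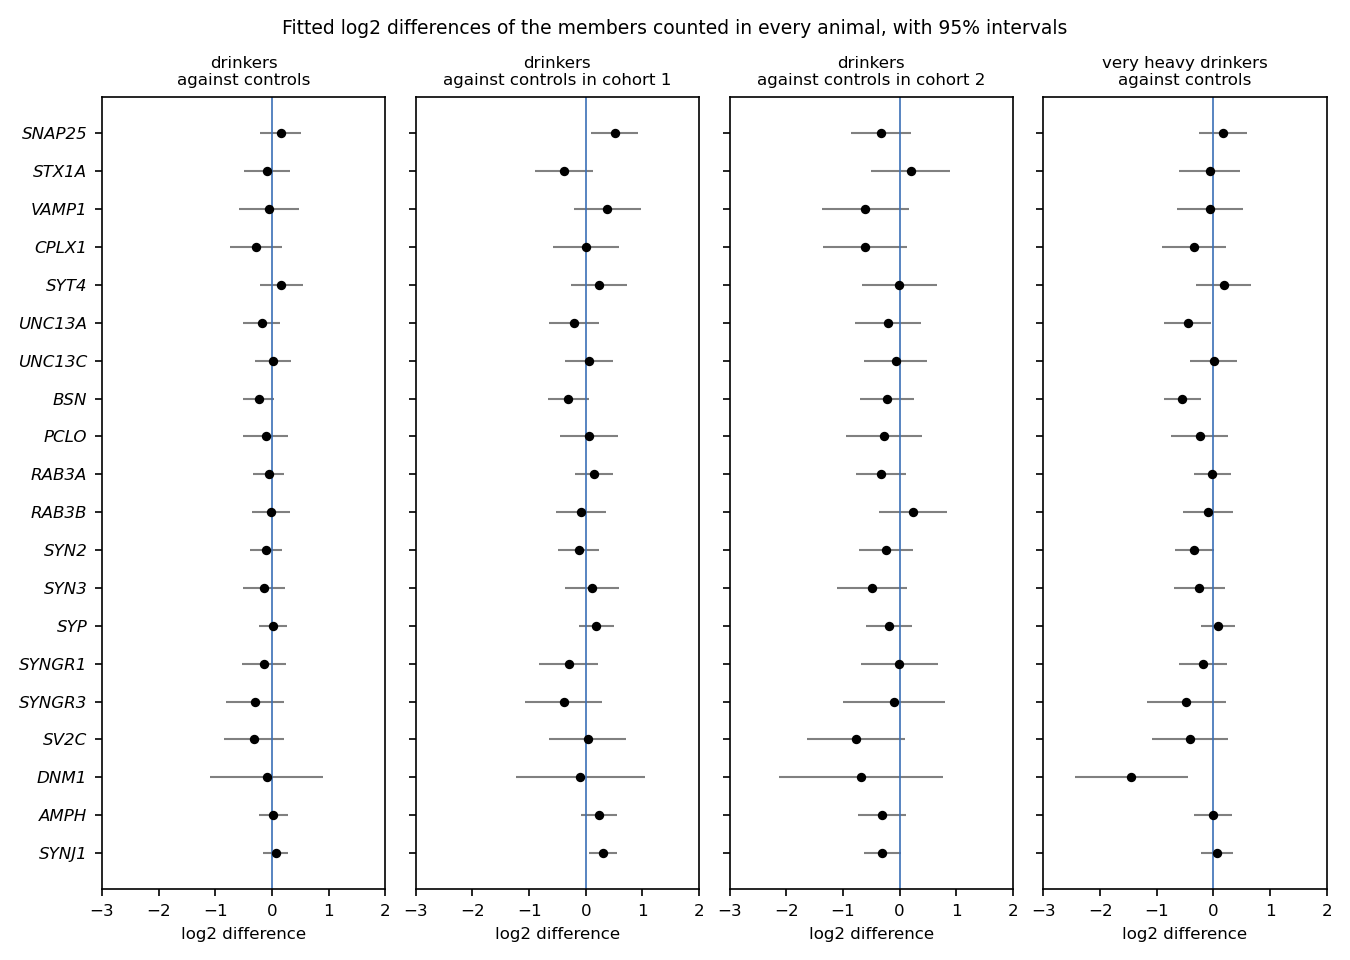
Fitted log2 differences (points) with 95% intervals (bars) of the 20 members counted in every animal, for drinkers against controls over both cohorts, in cohort 1, in cohort 2 and for very heavy drinkers against controls. SNAP25 lies at 0.51 in cohort 1 and below 0 in cohort 2, and DNM1 and BSN lie lowest in relation to their bars among very heavy drinkers.

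Cohorts were also compared directly, with the arm as a covariate. By edgeR 0 members were called, where 0.0436% of all transcripts were, and 2 members had an unadjusted p below 0.05, where 9.8% of all transcripts did. DNM1 ran from 3.41 through 14.6 to 37.2 CPM in cohort 1 and from 5.37 through 25.9 to 98.0 CPM in cohort 2, a log2 difference of 1.35 (cohort 2 minus cohort 1, SE 0.42, interval 0.49 to 2.21, edgeR adjusted p = 0.20). VAMP1 ran from 107 through 357 to 774 CPM in cohort 1 and from 186 through 247 to 426 CPM in cohort 2, a log2 difference of -0.59 (SE 0.24, interval -1.07 to -0.10, edgeR adjusted p = 0.35). Among drinkers alone the log2 difference of VAMP1 was -0.95 (SE 0.21, edgeR adjusted p = 0.046, within a range of 0.046 to 1.00 over the settings tried), in a fit that called 105 of 13195 transcripts, and among controls alone it was 0.036. SNAP25 followed at -0.29 (interval -0.64 to 0.06), with -0.592 among drinkers alone and 0.244 among controls alone. Of the 10 neuron markers tested 7 were lower in cohort 2, with a median log2 difference of -0.406, and their part in the VAMP1 and SNAP25 values was not tested. Below 0 were 12 of the 20 members counted throughout, against 48.3% of such transcripts. With the GC correction, under which 938 of the 13769 transcripts were called in place of 6, 0 members were called and 6 had an unadjusted p below 0.05. The median over the 36 members then went from 0.075 to -0.097, and that of all transcripts from 0.017 to -0.159. DESeq2 called 0.879% of all transcripts and 1 member, SYT1, which had counts in 2 animals of each cohort, so that its fitted value is not a fold.

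Drinking categories were compared with the cohort as a covariate, because the categories are spread unevenly over the cohorts. Very heavy drinkers, 3 of cohort 1 and 6 of cohort 2, differed from controls in 0 members by edgeR, where 0% of transcripts were called. With an unadjusted p below 0.05, 5 members were lower and 0 higher, against 3.71% of all transcripts that were lower with such a p. BSN was at 26.5 to 61.5 CPM in very heavy drinkers, with a median of 52.9, against 42.6 to 74.3 CPM and a median of 61.9 in controls, and its log2 difference was -0.55 (SE 0.16, interval -0.88 to -0.22, edgeR adjusted p = 0.56). DNM1 had a log2 difference of -1.45 (SE 0.48, interval -2.45 to -0.45, edgeR adjusted p = 0.56). UNC13A was at 20.8 to 45.0 CPM in very heavy drinkers, with a log2 difference of -0.45 (SE 0.20, edgeR adjusted p = 0.74). The other 2 were UNC13B and SYT1, which were listed at 0 in all 9 very heavy drinkers. In either direction 6.49% of all transcripts had such a p, and 15 of the 20 members counted throughout were below 0, against 50.5% of such transcripts. With the GC correction 20 in place of 25 of the 36 members were below 0, and their median went from -0.154 to -0.0724. The same correction moved the median of all transcripts from -0.024 to 0.0982. Neuron markers had a median log2 difference of 0.0847 here, with 3 of 10 below 0.

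DNM1 was at 6.49, 5.61 and 3.41 CPM in very heavy drinkers 1, 2 and 3, of cohort 1, and at 25.8, 21.5, 13.6, 5.37, 17.7 and 62.0 CPM in very heavy drinkers 4 to 9, of cohort 2. Controls of cohort 1 ranged from 4.56 to 31.8 CPM and controls 9, 10 and 11 were at 10.8, 98.0 and 59.4 CPM, so the ranges overlapped in both cohorts. Without the cohort as a covariate the DNM1 difference was -0.62 (SE 0.57) and that of BSN -0.40 (SE 0.16).

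UNC13B was the 1 member that DESeq2 called between very heavy drinkers and controls (0.341% of all transcripts called, adjusted p 3.64e-12, against a highest value of 0.77 over the settings tried). Its counts, 0 in each of the 9 very heavy drinkers and 0 or 70 to 371 in controls, allow no fold. With 6 of 11 controls also at 0, the groups overlapped.

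Heavy drinkers, 4 of cohort 1 and 1 of cohort 2, differed from controls in 0 members by edgeR, by DESeq2 and at an unadjusted p below 0.05, where edgeR called 0% of all transcripts, DESeq2 0.625%, and 7.28% had such a p. A log2 difference below 0 was found for 5 of the 20 members counted throughout, against 52.7% of such transcripts. The median over the 36 members was 0.081, and -0.0056 without heavy drinker 1. Neuron markers were above 0 in 9 of 10 cases with a median of 0.231, and their sum had a median of 10680 CPM against 6207 CPM in controls. Dopamine neuron markers were below 0 in 11 of 13 cases with a median of -0.668, and oligodendrocyte markers in 8 of 10 with a median of -0.209. The part of these lists in the members' values was not tested. SYT1 and RIMS2, both at 0 in many animals, had the lowest p, followed by SNAP25, which was at 1474, 713, 924, 833 and 1009 CPM in heavy drinkers 1 to 5 (log2 difference 0.32, interval -0.18 to 0.82, and 0.169 without heavy drinker 1). Very heavy and heavy drinkers differed in 0 members by edgeR, where 0% of transcripts were called, and 4 were lower in very heavy drinkers at an unadjusted p below 0.05, against 2.98% of all transcripts lower with such a p and 6.27% in either direction. Of the 20 members counted throughout, 18 were below 0, against 47.4% of such transcripts. Summed neuron markers had a median of 6347 CPM in very heavy drinkers (4141 to 27614) and 10680 CPM in heavy drinkers (4938 to 19347), with a median log2 difference of -0.29 over the 10 markers tested, and their part in this direction was not tested. DNM1 was at 37.2, 35.9, 12.8, 6.02 and 84.1 CPM in heavy drinkers 1 to 5, and the log2 difference was -1.94 (very heavy minus heavy, SE 0.56, interval -3.10 to -0.78, edgeR adjusted p = 0.62), or -0.968 (SE 0.69) without the cohort as a covariate. BSN was at 74.3, 63.2, 38.1, 50.2 and 70.2 CPM in the heavy drinkers (log2 difference -0.53, SE 0.19). UNC13B and SYT1 were the others, and DESeq2 called UNC13B (0.574% of all transcripts called, adjusted p 7.98e-09, highest 0.85 over the settings tried). The 2 binge drinkers were at 26.0 and 57.1 CPM for DNM1 and at 53.5 and 56.5 CPM for BSN, and the low drinker was at 18.3 and 56.7 CPM, without a test.

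The other genes of the pathway were read from lists chosen by function. Of 47 other vesicle release genes, such as further synaptotagmins, RIM-binding proteins and neurexins, 43 were tested. Of 21 other endocytosis genes 18 were tested, and of 7 vesicular transmitter transporters all were. None of the 3 lists had a gene called by edgeR in any of the 8 comparisons. Between drinkers and controls CASK, a scaffold kinase of the presynaptic membrane, had the lowest p (edgeR adjusted p = 0.52), but it was listed at 0 in 22 animals, as was RIMBP2 in 23. DNM2, the dynamin of most tissues, was counted in every animal and had a log2 difference of -0.58 (SE 0.28). Within cohort 1, VAMP4, a SNARE of endosomes and bulk endocytosis, had a log2 difference of 0.39 (SE 0.13, edgeR adjusted p = 0.12), and in the interaction it stood at -0.61 beside SH3GL2 (endophilin A1), at -0.79. Of the transporters, SLC17A7, the vesicular glutamate transporter of cortical neurons, had a log2 difference of 0.86 between cohorts (SE 0.32, edgeR adjusted p = 0.29).

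Many members rose and fell together across the 28 animals. Over the 190 pairs of the 20 members counted throughout, the median Pearson r of log2 CPM was 0.187, 73.2% of pairs were positive and 19.5% had an r above 0.5. Over all pairs of the 7637 transcripts counted throughout, the median r was 0.00 and 2.05% were above 0.5. Over the 630 pairs of all 36 members tested the median r was 0.0832. Among the 20 members the median r was 0.354 over the 11 controls, with 37.4% of pairs above 0.5, and 0.142 over the 17 drinkers, with 17.4%. The arms differ in their number of animals, and the difference between them was not tested. These figures describe the members and carry no test, since pairs share animals. For single pairs, 35 of the 630 had an adjusted permutation p below 0.05, 32 of them positive, and 31 of the 35 joined members counted throughout.

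**Figure D4:**
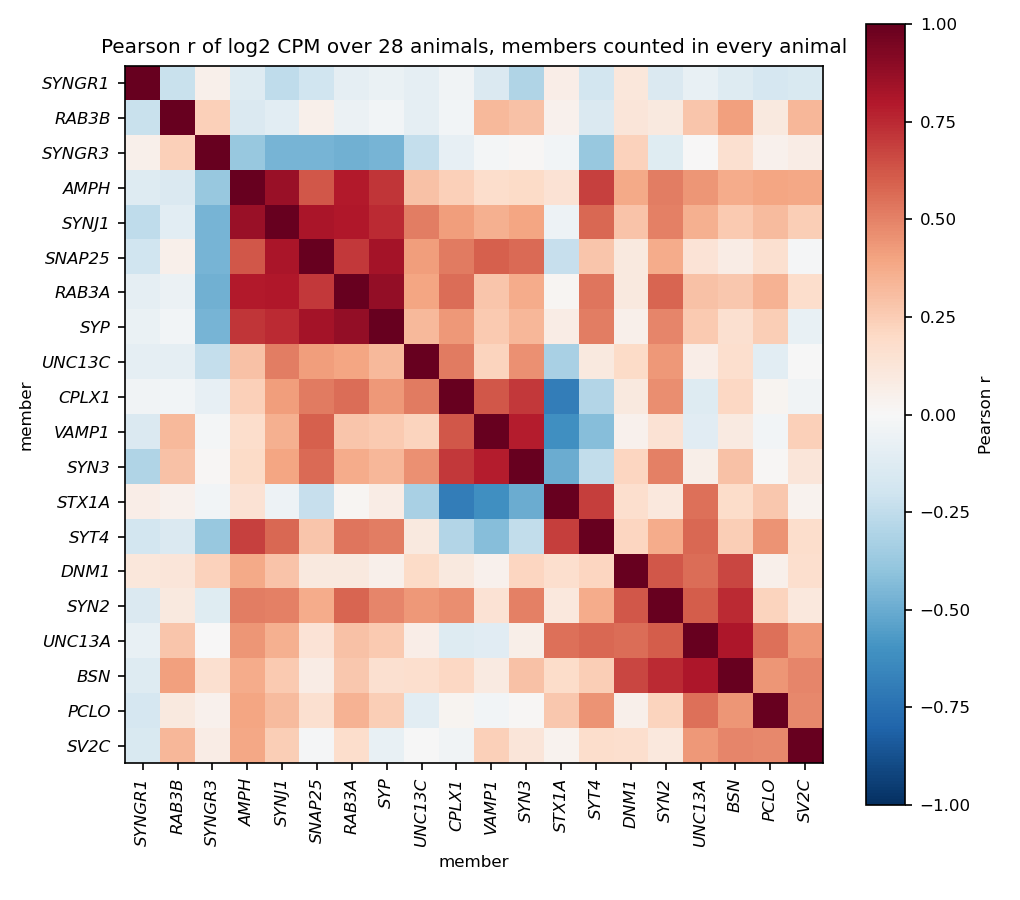
Pearson r of log2 CPM over the 28 animals for each pair of the 20 members counted in every animal, ordered by average linkage, with red for positive and blue for negative r. A red block joins AMPH, SYNJ1, SNAP25, RAB3A and SYP, a second joins CPLX1, VAMP1 and SYN3, and the blue cells between that second block and STX1A reach -0.689.

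The closest group crossed the members' roles: SNAP25 (fusion), RAB3A (docking), SYP (vesicle membrane), AMPH and SYNJ1 (endocytosis). RAB3A and SYP had the highest r of all pairs, 0.881 (Spearman rho 0.887, each with p = 1e-05, the smallest the 100000 permutations can give, adjusted p = 0.0007 over 630 pairs), with 0.874 in cohort 1 and 0.884 in cohort 2. Without the 2 animals farthest from the median in RAB3A it was 0.82. AMPH and SYNJ1 followed at 0.861 (rho 0.846, permutation adjusted p = 0.0007, 0.822 without the 2 farthest animals), with 0.866 and 0.905 in the cohorts. SNAP25 had an r of 0.831 with SYP (rho 0.829) and 0.817 with SYNJ1 (rho 0.677). The 10 pairs among these 5 members lay between 0.619, for SNAP25 and AMPH, and 0.881.

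Between AMPH and SYNJ1 and the pairs of SNAP25 stood RIMS1 and ERC1 at an r of 0.832, which rested on very heavy drinker 2, in which both were listed at 0. Its Spearman rho was 0.0345, its permutation adjusted p 0.22 and its r without the 2 farthest animals 0.0594.

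A second group held active zone scaffolds and DNM1. UNC13A and BSN had an r of 0.807 (rho 0.832, permutation adjusted p = 0.0007), BSN and SYN2 one of 0.748 (rho 0.766), and BSN and DNM1 one of 0.671 (rho 0.748). The differences of DNM1 and BSN in very heavy drinkers are therefore not independent of each other. Another group held VAMP1, SYN3 and CPLX1, with an r of 0.789 for VAMP1 and SYN3 (rho 0.779), 0.708 for CPLX1 and SYN3 (rho 0.631) and 0.624 for VAMP1 and CPLX1 (rho 0.579).

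STX1A ran against this last group. Its r with CPLX1 was -0.689, the lowest of all pairs (rho -0.753, permutation adjusted p = 0.00252), with -0.651 in cohort 1, -0.72 in cohort 2 and -0.70 without the 2 farthest animals. Its r with VAMP1 was -0.616 (rho -0.459, permutation adjusted p = 0.0139, -0.565 without the 2 farthest animals), but it was -0.687 in cohort 1 and -0.0972 in cohort 2. STX1A rose with SYT4 instead, at an r of 0.692 (rho 0.634, permutation adjusted p = 0.00252). STX1A, VAMP1 and CPLX1 proteins bind in 1 complex at the synapse. Punches high in the listed STX1A transcript tended to be low in CPLX1 in both cohorts, and low in VAMP1 in cohort 1 only. SYT1 and SYT11 had the same r of -0.616, but with a rho of -0.168 and an r of 0.211 without the 2 farthest animals it rested on few animals.

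Paralogs did not share a common pattern. RAB3A and RAB3B had an r of -0.055 (rho -0.154), RIMS1 and RIMS2 of 0.374 (rho 0.353) and SYT1 and SYT2 of 0.592 (rho 0.585, permutation adjusted p = 0.0371, 0.345 without the 2 farthest animals). VAMP1 against VAMP2, CPLX1 against CPLX2 and SYN1 against SYN2 could not be compared, since 1 of each pair had no row or did not pass the filter. SYNGR1 and SYNGR3 stood apart from the rest, with a median r of -0.129 and -0.026 with the other 19 members, and SYN2 was the best connected at 0.43.

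The stretches of 250 bases before the annotated starts of the pair with the highest r, RAB3A and SYP, are shown so that their letters can be compared. They were read from the Mmul_10 assembly at the starts of the RefSeq gene models, both on the minus strand: chr19:17735119-17735368 for RAB3A and chrX:49187092-49187341 for SYP. They are printed 5′ to 3′ on the strand of the gene, and capitals mark matches to the GC box GGGCGG on either strand, the site bound by SP1 and its relatives.
RAB3A: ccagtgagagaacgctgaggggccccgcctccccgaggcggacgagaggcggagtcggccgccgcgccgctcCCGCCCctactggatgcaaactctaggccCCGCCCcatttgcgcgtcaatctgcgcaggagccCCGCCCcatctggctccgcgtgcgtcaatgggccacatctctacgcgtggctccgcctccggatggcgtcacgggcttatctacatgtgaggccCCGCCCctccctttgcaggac
SYP: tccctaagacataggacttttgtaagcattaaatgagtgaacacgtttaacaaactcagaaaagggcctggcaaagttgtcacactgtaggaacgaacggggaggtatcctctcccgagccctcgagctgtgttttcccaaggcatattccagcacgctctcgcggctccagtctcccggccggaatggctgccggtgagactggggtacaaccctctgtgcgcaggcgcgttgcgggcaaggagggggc

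RAB3A had 4 GC box matches in this stretch and SYP had 0, although their levels moved together. Over the 43 members 29 (67.4%) had at least 1 match, against 43.7% of the 20782 protein-coding genes with such a stretch, and the members' stretches had a median GC content of 64.8% against 57.2%. The cAMP response element TGACGTCA and 2 parts of the REST site, TTCAGCACC and GGACAGCG, were searched on both strands too. Each was found in 1 member, SYN1, whose transcript was at 0 in 26 animals, and in 1.47%, 0.318% and 1.31% of all genes. CCAAT was found before 8 members (18.6%, against 31% of all genes), TATAAA before 3 (6.98% against 9.85%) and the NRF1 site before 0 (0.919% of all genes). These are matches of letters in a window and not tested sites.

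Members were then set beside markers of the cell types in the punch, the vesicular transporters that name a transmitter, the total counts and the mitochondrial share, over the 20 members counted throughout. Of 280 relations, 36 had an adjusted permutation p below 0.05, and none of these involved total counts or the mitochondrial share. The share of all transcripts with such relations was not computed, so these counts describe the members alone. SLC17A6, the vesicular glutamate transporter of midbrain neurons, gave the most, 9. It ran from 29.7 through 133 to 371 CPM over the animals and had an r of 0.804 with SYNJ1 (rho 0.797), 0.718 with SNAP25 (rho 0.535), 0.687 with RAB3A (rho 0.667), 0.685 with AMPH (rho 0.732) and 0.662 with SYP (rho 0.627). The other 4 lay outside that group: UNC13C was second highest at 0.738 (rho 0.70), and SYN2, CPLX1 and SYN3 were at 0.651, 0.56 and 0.556 (rho 0.493, 0.361 and 0.343). Without the 2 animals farthest from the member's median, SYN2, CPLX1 and SYN3 were at 0.454, 0.257 and 0.357, and UNC13C was at 0.648. SLC17A6 was lowest in control 5 and highest in heavy drinker 1, the animals at the ends of the SYN2 and CPLX1 ranges too. Its r with SYNJ1 was 0.901 in cohort 1 and 0.571 in cohort 2, and 0.83 without the 2 farthest animals.

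**Figure D5:**
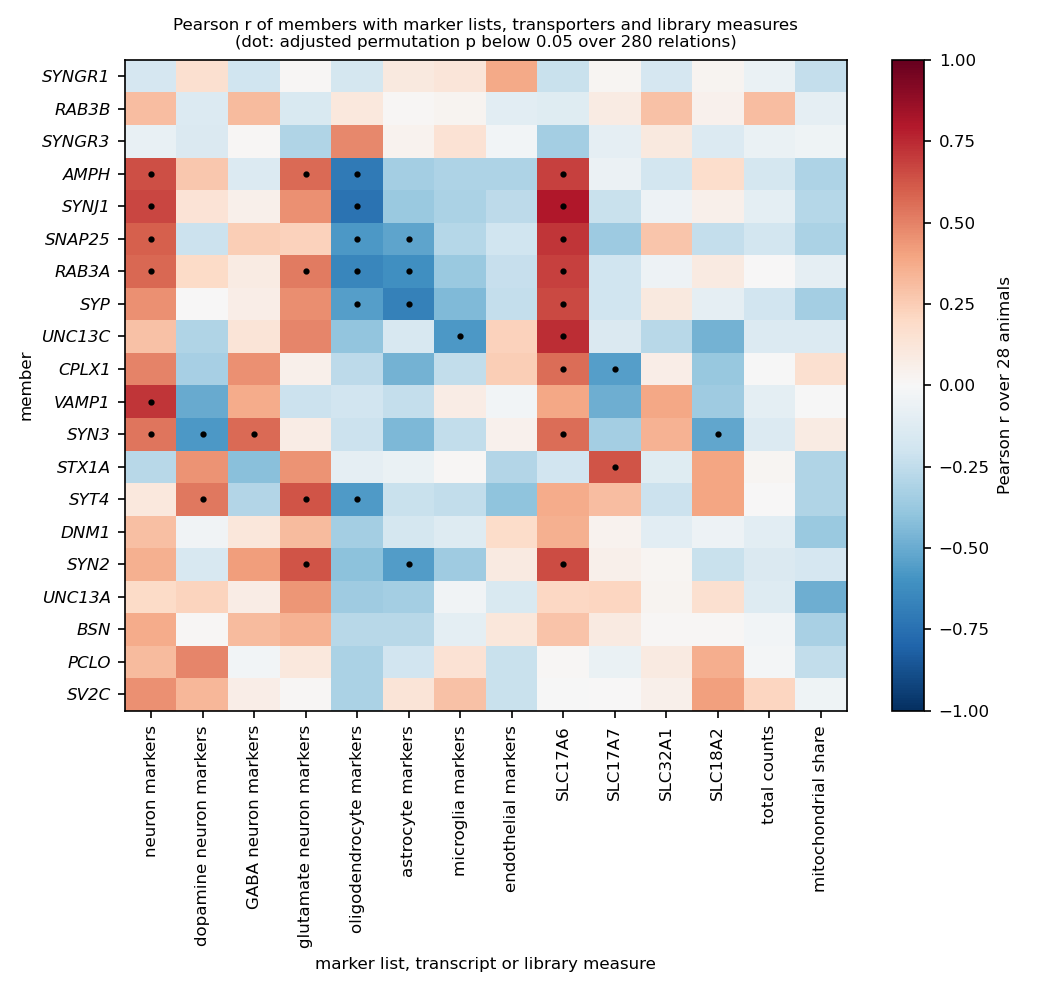
Pearson r over the 28 animals between the log2 CPM of each of the 20 members counted in every animal (vertical axis) and the scores of 8 marker lists, 4 transporters, total counts and mitochondrial share (horizontal axis), with dots at an adjusted permutation p below 0.05 over the 280 relations. The block of AMPH, SYNJ1, SNAP25, RAB3A and SYP is red for SLC17A6 and blue for oligodendrocyte markers.

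The same 5 members ran against oligodendrocyte markers, the transcripts of myelin-forming glia, with an r from -0.736 for SYNJ1 (rho -0.739, -0.754 and -0.782 in the cohorts) to -0.55 for SYP (rho -0.565). SYT4, which is not among these 5, did so too, at -0.564 (rho -0.579, permutation adjusted p = 0.0192). Oligodendrocyte markers, 10 of 11 with a row, summed to between 12616 and 22427 CPM, and 1 of them, CLDN11, was at 0 in some animals. Astrocyte markers also ran against part of this group, with an r of -0.675 for SYP (rho -0.631, permutation adjusted p = 0.00218), -0.61 for RAB3A (rho -0.499) and -0.528 for SNAP25 (rho -0.522), and against SYN2 at -0.559 (rho -0.499). All 9 astrocyte markers had a row and they summed to between 5341 and 7133 CPM, with SLC1A2 at 0 in every animal and AQP4 and ALDH1L1 at 0 in some. With 17 of the 20 members positive, neuron markers had a median r of 0.363, and VAMP1 was highest at 0.717 (rho 0.666). Neurons hold these transcripts, and CPM are relative to an adjusted library total. The values of a member and of the marker lists are therefore not independent measures.

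Dopamine neuron markers, 13 of 13 with a row, summed to between 47.0 and 1962 CPM, with NR4A2, LMX1B, PITX3, EN1, ALDH1A1 and DRD2 at 0 in some animals. SYT4 rose with them (r = 0.524, rho 0.436, permutation adjusted p = 0.0374) and SYN3 fell as they rose (r = -0.575, rho -0.489, permutation adjusted p = 0.0157). In cohort 1 these values were 0.722 and -0.731, and in cohort 2 they were 0.047 and -0.176, so that neither relation was seen in cohort 2. STX1A had an r of 0.448 with the same markers (rho 0.395, permutation adjusted p = 0.0884), with 0.755 in cohort 1 and -0.449 in cohort 2. STX1A also rose with SLC17A7 (r = 0.626, rho 0.657) while CPLX1 fell as it rose (r = -0.549, rho -0.519). These values were 0.702 and -0.68 in cohort 1 and 0.386 and -0.193 in cohort 2, and SLC17A7 was low, at 0.874 to 6.89 CPM. DNM1 and BSN had an r of -0.036 and 0.013 with the dopamine neuron markers.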

How the data were processed

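Total RNA of VTA tissue was sequenced from 28 rhesus macaques, with 1 library per animal. According to the labels and methods, the authors trimmed reads with Trim Galore 0.6.7 and quantified them with Salmon 1.9.0 against the Mmul_10 transcriptome, and they deposited estimated counts, 1 Ensembl transcript for each gene symbol. How that transcript was chosen is not given in the sources used here. A gene whose reads fell on other transcripts can therefore be listed at 0. One entry without a symbol (1.16e-05% of counts) was left out.

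After rounding of the deposited estimated counts to integers, a transcript entered the fits if 3 or more animals had 5 or more counts of it (13769 did). These were scaled by TMM and tested with the quasi-likelihood test of edgeR 4.0.16 in R 4.3.3, with Benjamini-Hochberg adjustment over all of them. CPM and log2 CPM used the TMM-adjusted library totals, and log2 CPM a prior count of 2. Arms were compared over all animals and within cohorts, and categories with the cohort as a covariate. Alternatives were DESeq2 1.42.0, DESeq2 size factors, other filters, mitochondrial transcripts left out, a GC correction, other covariates and animals left out. The scripts were tested on simulated data. Correlations used 100000 two-sided permutations, adjusted over all 630 pairs or all 280 marker relations. The p-values measure the spread between animals, and how far total counts limit the sparse members was not tested.

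Members and lists were chosen with earlier results of these data known. Values were given for a set list of core members, for the 3 members with the lowest p in each comparison, for each member listed at 0, and for paralog pairs and the 3 pairs with the highest and lowest r. Further pairs, marker relations and members were chosen after their values were seen. The cohort was read from the study's source data by animal number. Some upstream sequences are not reported here.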

Additional observations from a re-analysis of the deposited data

Results flagged for a closer look

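In 40 groups of 5 or 9 animals, 1 for each member counted throughout in heavy and in very heavy drinkers, 3 held an animal far from the others in log2 CPM. Chance alone would give about 1 group in 20, or 2.0. UNC13A was lowest in heavy drinker 3, with a gap to the next animal of 0.717 of the range of the 5 heavy drinkers. VAMP1 was highest in very heavy drinker 2, with a gap of 0.58 of the range of the 9 very heavy drinkers. AMPH was lowest in very heavy drinker 6, with a gap of 0.516 of that range.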

How the results depend on the processing

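The counts of members called by edgeR, 0 in each of the 8 comparisons, were recomputed under 81 alternatives, of which 77 gave 0 and 4 gave 1. DESeq2 called SYT1 between cohorts, and UNC13B between very heavy drinkers and controls and between very heavy and heavy drinkers, and with drinkers alone edgeR called VAMP1 between cohorts (1 member in each case), the last among 105 of 13195 transcripts called. SYT1 and UNC13B were listed at 0 in 24 and 19 animals. Leaving out single animals gave 0 members in each run made. Heavy drinkers 1 to 5 were left out in turn where heavy drinkers were compared. Controls 9, 10 and 11 were left out in turn in cohort 2 and the interaction. Control 5 and heavy drinker 1, chosen after seeing the data, were left out between drinkers and controls, in cohort 1 and in the interaction. No single animal was left out between very heavy drinkers and controls or between cohorts. The median r over the 36 members, 0.0832, became 0.0794 with variance stabilized counts, 0.0978 as Spearman rho, 0.0858 without mitochondrial transcripts, 0.065 with a GC correction, 0.0654 within cohort 1, 0.17 within cohort 2 and 0.187 with the 20 members counted throughout. By arm it was 0.181 in controls and 0.0722 in drinkers. Of 245 recomputed log2 differences of single members, 238 kept their sign, and the 7 that did not belonged to STX1A (0.0376, GC correction), VAMP1 (0.0363, GC correction, and 0.00662, cohort as a covariate) and SYP (-0.0157 without control 5, -0.0441 without heavy drinker 1) between drinkers and controls, and to SNAP25 (0.244) and VAMP1 (0.0356) between cohorts in controls alone. The GC correction moved the median log2 difference of all transcripts to 0.138 in cohort 1 and to -0.159 between cohorts. No paired analysis was possible because the numbers of controls and drinkers name animals and do not tie one to another. Members listed at 0 in many animals allow no statement on their genes.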
